A study of Mus musculus with 7 samples.

Results

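The genes described here are 34 genes of glucose uptake, glycolysis and lactate handling, taken by symbol from the 27998 genes of droplet 3' single-cell RNA libraries of mouse muscle. They comprise 3 glucose transporters, 2 hexokinases, Gpi1, 3 phosphofructokinases with 4 fructose-2,6-bisphosphate enzymes, the enzymes from aldolase to pyruvate kinase with their isoforms, 2 lactate dehydrogenases, 2 lactate transporters, 3 pyruvate dehydrogenase kinases and 2 pyruvate dehydrogenase subunits. Expression was compared between 4 groups of strain C56BL/6J, the spelling in the labels. Primary myoblasts (1 library) were sorted satellite cells from hindlimbs of wild-type mice aged 3 months, expanded for 4 to 5 passages on collagen in HAM's F10 with 2.5 ng/µl bFGF, 10% horse serum and antibiotics. Injured MuSCs (muscle stem cells, or satellite cells; 2 libraries) were sorted from TE-EDL muscles 60 h after injury with 2 µM notexin, a venom toxin that kills muscle fibres. Homeostatic MuSCs (2 libraries) were sorted satellite cells with no injury named. Total muscle (2 libraries) was the live-cell sort of digested hindlimb muscle of wild-type mice aged 3 months. No age is given in the labels for the sorted MuSC groups, and none of the labels says whether replicate libraries came from separate animals, so p-values measure the spread between these libraries only. The injured and homeostatic groups also differ in the muscles named.

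Glycolysis splits glucose into pyruvate in the cytosol. Glucose enters by facilitative transporters, is trapped by hexokinase, committed by phosphofructokinase and carried through a shared lower chain. Pyruvate is then either reduced to lactate, which monocarboxylate transporters export, or admitted to mitochondria through pyruvate dehydrogenase, which its kinases switch off. Several steps have isoforms encoded by separate genes, of which Pfkm, Pgam2 and Eno3 are the forms of mature muscle fibres. Quiescent satellite cells are known for low metabolic activity, and activation is known to raise glycolytic flux. RNA levels do not measure flux, and the names of the groups call none of them quiescent or activated.

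The libraries hold between 3319283 and 114382567 UMIs (unique molecular identifiers, each counting 1 captured molecule), and the summed myogenic cells between 319405 in total muscle 1 and 108378276 in primary myoblasts. The myogenic cells number 4240 in primary myoblasts, 1152 and 1833 in injured MuSC 1 and 2, 1491 and 1364 in homeostatic MuSC 1 and 2, and 90 and 128 in total muscle 1 and 2. Of 12 myogenic markers, 10 to 12 had UMIs in every library. The injured libraries stand apart in how their files are laid out. Their gene rows run from last to first in 99.95% and 99.92% of steps between entries at the start of each file, against at most 0.1% in the other 5 libraries. Each of them also holds 246 cells whose barcode occurs in the other, and without shared barcodes the 25 genes called after injury, and the 27 and 23 called in primary myoblasts against homeostatic and injured MuSCs, were all still called. Their mitochondrial share was 3.99% and 3.70% of UMIs, against 1.11% in primary myoblasts and 1.64% and 1.63% in homeostatic MuSC 1 and 2. In these libraries genes with a near-identical copy elsewhere in the transcriptome were shifted upward as a class. Relative to homeostatic MuSCs, the median log2 fold change was 0.55 over 1911 tested genes with a copy and -0.09 over 8674 without. Of the 34 genes, 12 have such a copy (Gpi1, Aldoa, Tpi1, Gapdh, Pgk1, Pgam1, Eno1, Eno1b, Pkm, Ldha, Ldhb and Pdhb) and 22 do not. The part of this shift in the results for those 12 was not tested, so the genes without a copy are given apart from them.

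**Figure D1:**
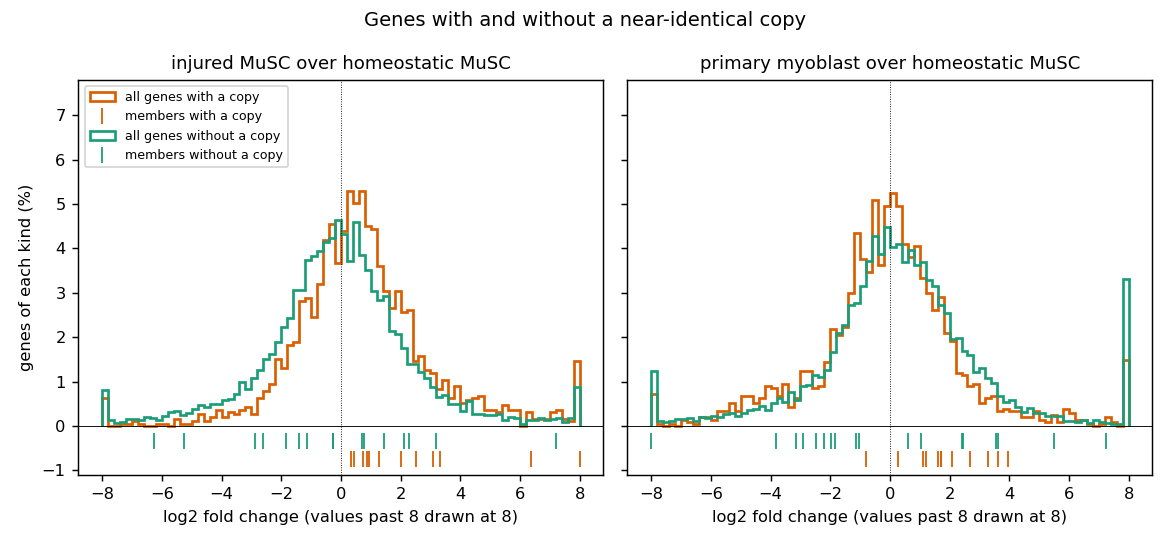
Log2 fold change of all tested genes with (orange) and without (green) a near-identical copy, as the percentage of each kind per bin, with ticks for the members of the gene list below the axis. Left, injured over homeostatic MuSCs, where the orange curve is displaced to higher values (medians 0.55 and -0.09); right, primary myoblasts over homeostatic MuSCs, where the medians were -0.004 and 0.25.

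Values below are scaled CPM, that is, counts per 1e+06 UMIs of the summed myogenic cells, with the library size scaled by the trimmed mean of M values (TMM) over all 7 libraries. Values of gated cell types of total muscle are instead unscaled, as counts per 1e+06 UMIs of the cells of that type. As each captured molecule gives 1 tag, they are not divided by transcript length. Means are given ± SD over libraries. Log2 fold changes are given ± SE, and a gene passed at an adjusted p under 0.05 in edgeR's quasi-likelihood test over all genes tested. In summed cells, the number of cells with a transcript and the molecules per cell cannot be told apart. Scaled CPM are also relative to all UMIs of those cells. Median UMIs per barcode were 24779 in primary myoblasts and 2245 and 2300 in homeostatic MuSC 1 and 2. Hk2 was lower in CPM in primary myoblasts. It had UMIs in 52.2% of their cells, against 36.3% and 40.8% in homeostatic MuSC 1 and 2. Of the 10 listed genes lower there, only Slc2a3 had UMIs in a smaller share of cells (0.14% against 4.02% and 2.86%). Myod1, among the myogenic markers, stood at 476 CPM in primary myoblasts and 279 and 293 in injured MuSC 1 and 2. It stood at 1648 and 1690 in homeostatic MuSC 1 and 2, and 2045 and 3025 in total muscle 1 and 2.

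After injury genes of the list moved in both directions. Without a near-identical copy, Eno3, Pgam2, the transporter Slc2a3, Pfkl and the kinases Pdk3 and Pdk4 were among those higher in injured than in homeostatic MuSCs, while Slc2a1, Hk1, Hk2, Pfkp and the lactate exporter Slc16a3 were lower. Lower-glycolytic genes with a copy, such as Gapdh, Tpi1 and Eno1, were higher too. Of 28 genes tested, 18 were higher and 7 lower, where 38.3% of all 10622 tested genes were higher and 37.3% lower. Among the 16 tested genes without a copy, 7 were higher and 7 lower (median -0.26 on the log2 scale), where of all 8674 such genes 3092 were higher and 3427 lower (median -0.09). Among the 12 with a copy, 11 were higher and Aldoa did not pass (median 1.65), where of all 1911 such genes 966 were higher and 514 lower (median 0.55). The 6 untested genes (Slc2a4, Pfkfb1, Pfkfb2, Aldoc, Eno2 and Pdk1) were too low in both groups. Genes pass the filter on low counts through the group where they are high, so these counts describe the list and do not stand for all 34 genes.

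Primary myoblasts were compared with homeostatic MuSCs in files of the same layout. Tpi1, Eno1, Eno3, Pkm and both lactate dehydrogenases, with Pfkl and Pgam2, were higher in primary myoblasts, and Hk2, Pfkp, Slc2a1, Slc2a3 and both lactate transporters were lower. Of 30 genes tested, 17 were higher and 10 lower in primary myoblasts, where 39.5% of all 12416 tested genes were higher and 32.2% lower. The median was 1.17 over the list and 0.19 over all genes. Without a copy, 8 of 18 were higher and 9 lower (median -1.09), where of all 10271 such genes 4185 were higher and 3203 lower (median 0.25). With a copy, 9 of 12 were higher and 1 lower (median 1.72), where of all 2098 such genes 706 were higher and 779 lower (median -0.004). There is a single myoblast library, which the test assumes to vary as the sorted groups do, and its contrast shares the homeostatic libraries with the injury contrast.

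Primary myoblasts also had more Pfkl, Pgam2, Ldhb and Pdk1 than injured MuSCs, and less Slc2a3, Hk2, Slc16a1 and Pdk4. The comparison gave 14 genes higher and 9 lower of 30, where 34.4% of all genes were higher and 25.5% lower. The median was 0.35 over the list and 0.20 over all genes. Scaling by library size alone, without TMM, moved the median of all genes to 0.89 and the split of the list to 19 higher and 6 lower. The 18 tested genes without a copy had 8 higher and 4 lower, where of all 10271 such genes 3820 were higher and 2213 lower. This contrast shares libraries with both others.

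**Figure D2:**
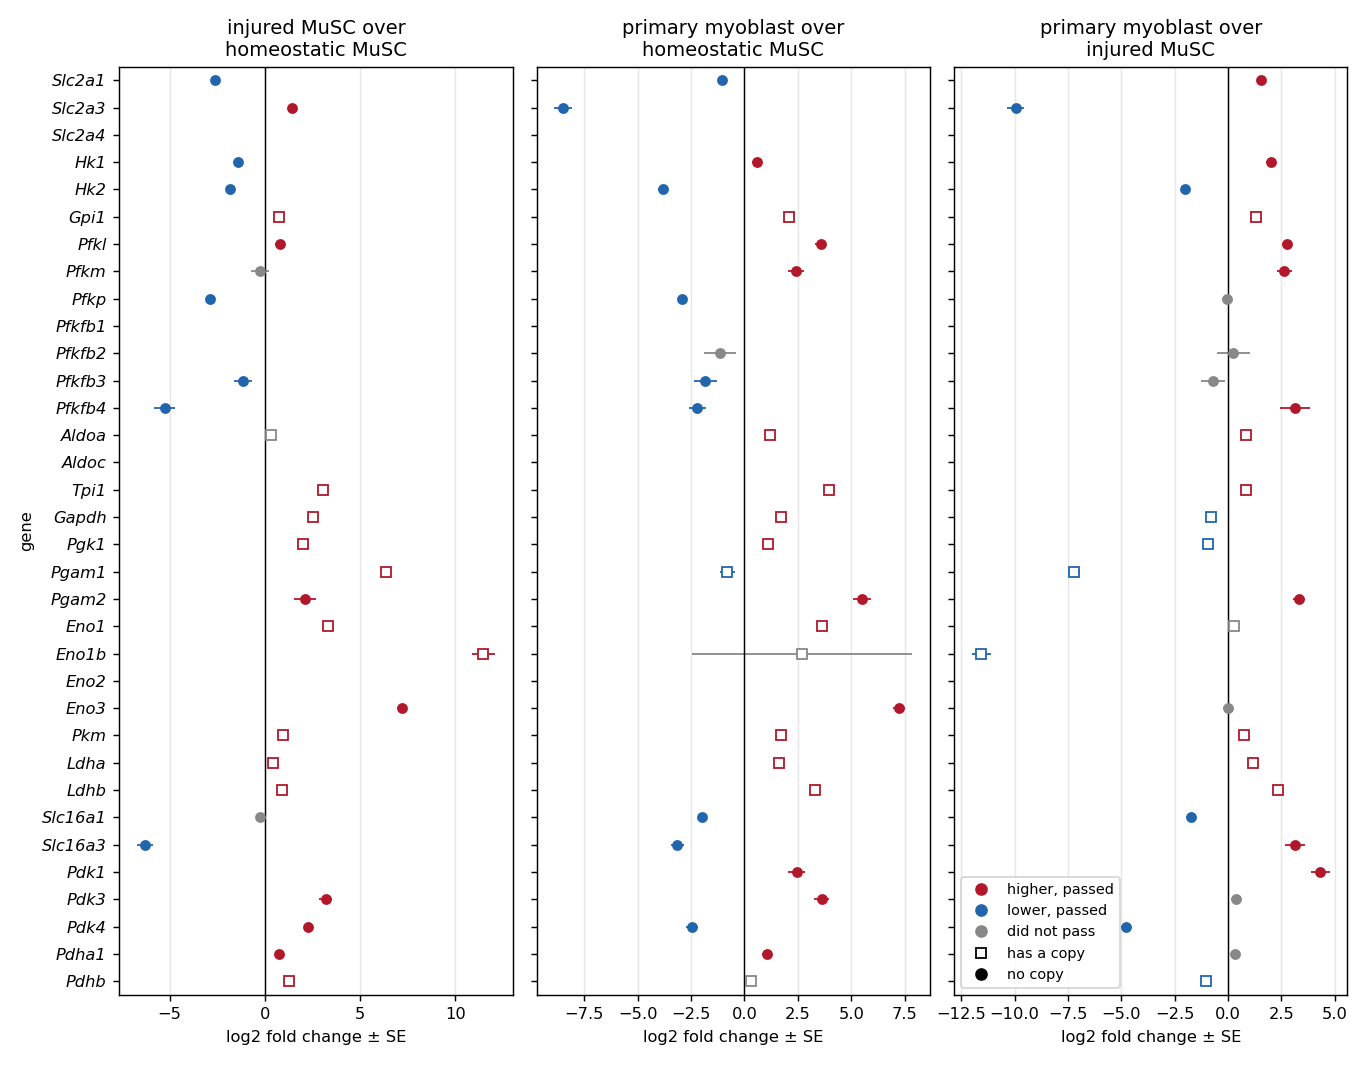
Log2 fold change ± SE of each tested member in 3 comparisons of summed myogenic cells, in red where higher and blue where lower at an adjusted p under 0.05, in grey where not passed. Open squares are genes with a near-identical copy; Eno3 lies at 7.19 and 7.23 over homeostatic MuSCs in the first and second panels and at 0.00 in the third.

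**Figure D3:**
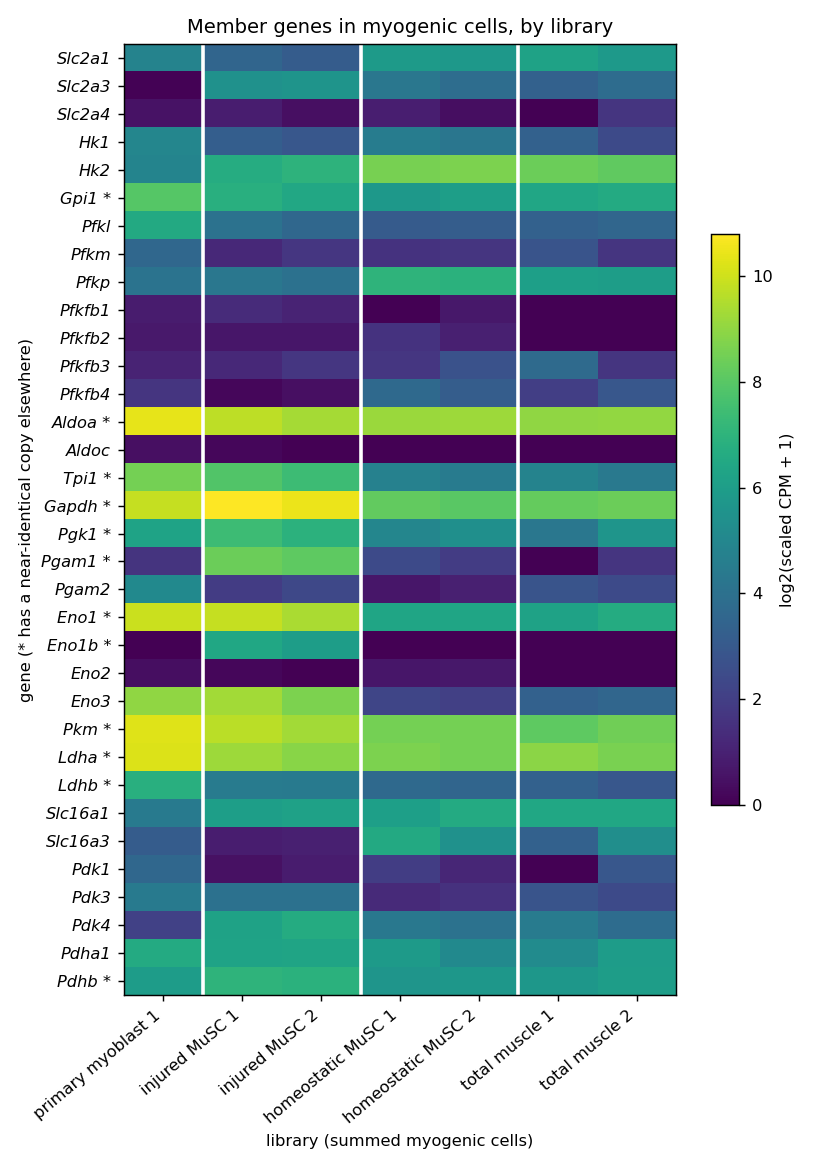
Log2(scaled CPM + 1) of the 34 genes (rows, in pathway order) in the summed myogenic cells of each library (columns, from primary myoblasts on the left to total muscle on the right). Pgam1 and Eno1b are bright in the 2 injured libraries alone, Eno3 in the injured and myoblast libraries, and Hk2, Pfkp and Slc16a3 are brightest in the homeostatic libraries.

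Glucose transporters changed places between the groups. Slc2a1 encodes GLUT1, the widespread basal transporter. Its level was 27.1 CPM in primary myoblasts, 10.3 and 7.70 in injured MuSC 1 and 2, 57.5 and 53.6 in homeostatic MuSC 1 and 2, and 72.7 and 54.6 in total muscle 1 and 2. The injured libraries were lowest and the uninjured ones highest, with no overlap. The log2 fold change was -2.62 ± 0.21 in injured against homeostatic MuSCs (adjusted p = 1.73e-08), -1.03 ± 0.22 in primary myoblasts against homeostatic MuSCs (0.00019) and 1.57 ± 0.23 in primary myoblasts against injured MuSCs (3.05e-06). Slc2a3 encodes GLUT3, a high-affinity transporter best known from neurons. It stood at 0.04 CPM in primary myoblasts (6 UMIs), 42.8 and 46.8 in injured MuSC 1 and 2, 18.7 and 13.7 in homeostatic MuSC 1 and 2, and 9.09 and 13.1 in total muscle 1 and 2. It was thus highest after injury and close to absent in culture. It rose by 1.44 ± 0.21 in injured against homeostatic MuSCs (1.5e-05), and its log2 fold change in primary myoblasts was -8.48 ± 0.42 against homeostatic (2.64e-14) and -9.95 ± 0.40 against injured MuSCs (1.13e-15). Slc2a4, the insulin-responsive GLUT4, was at 0.46 CPM in primary myoblasts and at most 2.19 CPM in every other library, and was not tested.

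Hexokinases, which trap glucose as glucose 6-phosphate, were dominated by Hk2 outside culture. Hk2, an isoform of muscle and fat, stood at 28.2 CPM in primary myoblasts, 100 and 125 in injured MuSC 1 and 2, 385 and 403 in homeostatic MuSC 1 and 2, and 333 and 286 in total muscle 1 and 2. Each step from homeostatic through injured to cultured cells was without overlap. The log2 fold change was -1.83 ± 0.16 after injury (3.53e-08), -3.81 ± 0.23 in primary myoblasts against homeostatic MuSCs (1.04e-12) and -2.0 ± 0.21 against injured MuSCs (2.3e-08). Hk1, the widespread housekeeping isoform, stood at 30.3 CPM in primary myoblasts, 8.37 and 6.57 in injured MuSC 1 and 2, 21.8 and 18.1 in homeostatic MuSC 1 and 2, and 9.09 and 4.37 in total muscle 1 and 2. It was lower after injury by a log2 fold change of -1.42 ± 0.25 (7.63e-05) and higher in primary myoblasts than in injured MuSCs by 2.0 ± 0.23 (1.44e-07). Against homeostatic MuSCs the myoblast value was 0.60 ± 0.23 (0.0233), which did not pass without homeostatic MuSC 2 (0.45, adjusted p = 0.109) or in DESeq2 (0.331). Markers of fibro-adipogenic cells, the type with the highest Hk2 of total muscle, differed between these libraries too. Of 6 such markers, 4 to 6 had UMIs in each library, and their summed level was 0.54 CPM in primary myoblasts, 2.37 and 2.63 in injured MuSC 1 and 2, 218 and 237 in homeostatic MuSC 1 and 2, and 403 and 417 in total muscle 1 and 2. The log2 fold change of Hk2 in homeostatic MuSCs against total muscle was 0.27 ± 0.15 (0.33), which did not pass. Pdgfra was at 0 in homeostatic MuSC 2 and total muscle 1. In gated fibro-adipogenic cells the same sum, without TMM scaling, was 25391 and 26119 CPM, beside 883 and 867 CPM of Hk2. The part of this RNA in the Hk2 result was not tested.

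The promoters of Hk2 and Slc16a3, both lower after injury and in culture than in homeostatic MuSCs, are shown as the 250 bases before the annotated start (RefSeq, GRCm38.p6, on the gene's strand). Capitals mark ACGTG or its reverse complement CACGT, the core recognised by hypoxia-inducible factors and, within CACGTG, by other basic helix-loop-helix factors.
Hk2 (chr6:82774455-82774704, minus strand): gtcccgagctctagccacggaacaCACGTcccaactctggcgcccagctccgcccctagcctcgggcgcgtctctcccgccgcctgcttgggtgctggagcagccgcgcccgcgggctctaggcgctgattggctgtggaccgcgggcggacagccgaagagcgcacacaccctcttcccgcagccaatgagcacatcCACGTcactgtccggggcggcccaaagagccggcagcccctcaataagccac
Slc16a3 (chr11:120948817-120949066, plus strand): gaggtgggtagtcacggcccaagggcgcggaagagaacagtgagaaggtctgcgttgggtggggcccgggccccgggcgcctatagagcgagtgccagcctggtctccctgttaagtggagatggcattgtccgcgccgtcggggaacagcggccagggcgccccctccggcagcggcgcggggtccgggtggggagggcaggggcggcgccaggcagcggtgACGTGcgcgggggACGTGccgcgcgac
Each holds 2 matches. The motif occurs in 16.6% of the 32851 windows of this length in the table, and at 1 or more starts of 14 of the 31 list members that the table holds. These 31 members have 49 starts, and a gene with several starts has several chances of a match. The share of windows and the count of genes are therefore not comparable, and whether the list holds more matches than other genes was not tested. Both genes were shown with their values known. Pfkp and Pfkfb4, also lower in both comparisons, had no match at any start, while Pgk1 and Pkm, higher in both, had a match. A match describes these letters and not a bound site.

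Phosphofructokinase, the committing step, changed isoform. Pfkp, the platelet form, stood at 16.4 CPM in primary myoblasts, 18.7 and 15.2 in injured MuSC 1 and 2, 130 and 117 in homeostatic MuSC 1 and 2, and 66.6 and 63.4 in total muscle 1 and 2. The myoblast library and both injured libraries lay far below all homeostatic and total muscle libraries. The log2 fold change was -2.88 ± 0.18 after injury (6.85e-10) and -2.91 ± 0.22 in primary myoblasts against homeostatic MuSCs (4.89e-11), and -0.06 ± 0.21 between primary myoblasts and injured MuSCs (0.825; 0.64 without TMM, adjusted p = 0.00833). Pfkl, the liver form, stood at 92.1 CPM in primary myoblasts, 15.9 and 11.1 in injured MuSC 1 and 2, 7.47 and 8.10 in homeostatic MuSC 1 and 2, and 9.09 and 10.9 in total muscle 1 and 2. It was highest in culture, by 3.56 ± 0.25 over homeostatic (1.58e-11) and 2.75 ± 0.22 over injured MuSCs (1.83e-10). Its rise after injury, 0.79 ± 0.28 (0.0174), did not pass without homeostatic MuSC 1 (0.71, adjusted p = 0.0568), without injured MuSC 1 (0.51, adjusted p = 0.238) or without TMM (0.49, adjusted p = 0.12). Pfkm, the muscle form, stood at 11.1 CPM in primary myoblasts, 1.40 and 2.25 in injured MuSC 1 and 2, 2.01 and 2.18 in homeostatic MuSC 1 and 2, and 6.06 and 2.19 in total muscle 1 and 2. It was higher in primary myoblasts than in homeostatic (2.41 ± 0.39, 7.89e-06) and injured MuSCs (2.64 ± 0.34, 5.99e-07), and after injury its log2 fold change was -0.25 ± 0.50 (0.653). Pfkm and Pfkfb2 each overlap another annotated gene on the same strand, so their counts are uncertain.

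The 4 Pfkfb genes, whose products set the phosphofructokinase activator fructose 2,6-bisphosphate, stayed at or below 2.25 CPM in the primary myoblast and injured libraries and at or below 11.8 CPM in the homeostatic ones. Pfkfb4 had 3 UMIs over both injured libraries against 67 over the homeostatic ones, a 41.7-fold lower level (95% counting interval 13.7 to 207). Its fitted log2 fold change of -5.25 moved to -4.62 without injured MuSC 1 and to -5.91 without injured MuSC 2. In primary myoblasts it was lower than in homeostatic MuSCs, at -2.20 ± 0.38 (2.12e-05). Pfkfb3 was lower in primary myoblasts than in homeostatic MuSCs (-1.83 ± 0.54, 0.00437). It passed in the injury comparison by a narrow margin (-1.14 ± 0.50, 0.0468). Neither value of Pfkfb3 passed without homeostatic MuSC 2 (-1.08, adjusted p = 0.187, and -0.41, adjusted p = 0.622), and the injury value did not pass without either injured library (0.324 and 0.0758). Pfkfb1 and Pfkfb2 had at most 11 UMIs in any injured, homeostatic or total muscle library.

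Gpi1 and the enzymes from aldolase to pyruvate kinase include the most abundant transcripts of the list. Aldoa, the aldolase of muscle and most tissues, stood at 1355 CPM in primary myoblasts, 852 and 653 in injured MuSC 1 and 2, 577 and 597 in homeostatic MuSC 1 and 2, and 506 and 520 in total muscle 1 and 2. It was higher in primary myoblasts than in homeostatic MuSCs by 1.21 ± 0.18 (2.71e-06) and than in injured MuSCs by 0.85 ± 0.18 (0.000333), and in injured against homeostatic MuSCs the value was 0.34 ± 0.15 (0.0511; 0.00514 without injured MuSC 2). Aldoc, the brain form, did not exceed 0.34 CPM. Tpi1, triosephosphate isomerase, stood at 368 CPM in primary myoblasts, 234 and 170 in injured MuSC 1 and 2, 25.9 and 21.2 in homeostatic MuSC 1 and 2, and 27.3 and 19.7 in total muscle 1 and 2. The myoblast and injured libraries were separated from the homeostatic and total muscle libraries by a wide gap, with 3.08 ± 0.20 after injury (1.25e-09) and 3.96 ± 0.22 in primary myoblasts against homeostatic MuSCs (2.06e-13). Gpi1, the glucose 6-phosphate isomerase, stood at 249 CPM in primary myoblasts, 112 and 87.2 in injured MuSC 1 and 2, 53.2 and 65.7 in homeostatic MuSC 1 and 2, and 81.8 and 96.2 in total muscle 1 and 2. Its log2 fold change was 0.73 ± 0.17 after injury (0.0013) and 2.07 ± 0.20 in primary myoblasts against homeostatic MuSCs (3.05e-09), and the injured and total muscle libraries overlapped.

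Gapdh, the dehydrogenase widely used as a reference gene, stood at 913 CPM in primary myoblasts, 1777 and 1418 in injured MuSC 1 and 2, 290 and 265 in homeostatic MuSC 1 and 2, and 300 and 334 in total muscle 1 and 2. The injured libraries were highest of all. The gene has 167 near-identical copies. Its log2 fold change was 2.51 ± 0.155 after injury (8.03e-10), 1.72 ± 0.18 in primary myoblasts against homeostatic (9.51e-09) and -0.81 ± 0.19 against injured MuSCs (0.000752), where the last did not pass without TMM (-0.12, adjusted p = 0.557). Pgk1, the first ATP-yielding kinase, stood at 76.2 CPM in primary myoblasts, 167 and 120 in injured MuSC 1 and 2, 29.6 and 40.5 in homeostatic MuSC 1 and 2, and 18.2 and 48.1 in total muscle 1 and 2. It followed the same order as Gapdh, at 2.02 ± 0.20 (1.69e-07), 1.12 ± 0.22 (8.98e-05) and -0.92 ± 0.21 (0.000828) in the same 3 comparisons, and its last value too did not pass without TMM (-0.22, adjusted p = 0.344). Pkm, pyruvate kinase, stood at 1247 CPM in primary myoblasts, 828 and 626 in injured MuSC 1 and 2, 376 and 376 in homeostatic MuSC 1 and 2, and 276 and 352 in total muscle 1 and 2. It rose at each step from homeostatic MuSCs, by 0.93 ± 0.15 after injury (4.98e-05), 1.73 ± 0.18 in primary myoblasts (1.38e-08) and 0.77 ± 0.18 between primary myoblasts and injured MuSCs (0.00089). The 3' counts do not separate the Pkm splice forms.

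Phosphoglycerate mutase and enolase held the most uneven isoforms. Pgam1, the widespread mutase with 3 copies, stood at 2.06 CPM in primary myoblasts, 330 and 273 in injured MuSC 1 and 2, 4.31 and 2.80 in homeostatic MuSC 1 and 2, and 0 and 2.19 in total muscle 1 and 2. Eno1b, an Eno1-like gene with 1 copy, stood at 0.02 CPM in primary myoblasts (3 UMIs) and 84.7 and 63.3 in injured MuSC 1 and 2, with 0 UMIs in every homeostatic and total muscle library. In both the injured libraries stood far above every other library. Pgam1 had a log2 fold change of 6.37 ± 0.24 after injury (3.76e-12) and -7.20 ± 0.28 in primary myoblasts against injured MuSCs (7.78e-16). Its value in primary myoblasts against homeostatic MuSCs, -0.80 ± 0.36 (0.0493), did not pass without homeostatic MuSC 1 (-0.43, adjusted p = 0.476) or without TMM (-0.42, adjusted p = 0.277). Eno1b was at least 169-fold higher in injured than in homeostatic MuSCs, taking 3 UMIs over the homeostatic group as the floor. Whether these levels belong to the 2 genes or to their copies was not tested.

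Eno1, the widespread enolase with 5 copies, stood at 984 CPM in primary myoblasts, 930 and 691 in injured MuSC 1 and 2, 79.6 and 81.3 in homeostatic MuSC 1 and 2, and 72.7 and 98.4 in total muscle 1 and 2. Its log2 fold change was 3.31 ± 0.17 after injury (1.31e-10) and 3.61 ± 0.19 in primary myoblasts against homeostatic MuSCs (1.17e-13), in libraries that did not overlap. Between primary myoblasts and injured MuSCs it was 0.28 ± 0.19 (0.213), which passed without injured MuSC 1 (0.51, adjusted p = 0.0374) and without TMM (0.97, adjusted p = 8.67e-05). Eno2, the neuronal form, did not exceed 0.62 CPM. Eno3, the muscle enolase, has no near-identical copy. It stood at 516 CPM in primary myoblasts, 620 and 408 in injured MuSC 1 and 2, 3.74 and 3.12 in homeostatic MuSC 1 and 2, and 9.09 and 10.9 in total muscle 1 and 2. The myoblast and injured libraries were thus about as high as each other, and all of them were over 100 CPM above every homeostatic and total muscle library. The log2 fold change was 7.19 ± 0.28 after injury (5.14e-12), 7.23 ± 0.29 in primary myoblasts against homeostatic MuSCs (8.51e-16), and 0.00 ± 0.21 between primary myoblasts and injured MuSCs (0.997; 0.70 without TMM, adjusted p = 0.00471). Pgam2, the muscle mutase, also without a copy, stood at 34.0 CPM in primary myoblasts, 2.79 and 4.13 in injured MuSC 1 and 2, 0.57 and 0.93 in homeostatic MuSC 1 and 2, and 6.06 and 4.37 in total muscle 1 and 2. It was highest in culture, by 5.50 ± 0.41 over homeostatic (3.74e-11) and 3.32 ± 0.27 over injured MuSCs (3.2e-10), and after injury its value was 2.13 ± 0.58 (0.00351; 0.0574 in DESeq2).

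Genes listed as myofibre markers moved with these muscle isoforms in part. Of 9 myofibre markers, 7 to 9 had UMIs in each library, and their summed level was 2275 CPM in primary myoblasts, 186 and 332 in injured MuSC 1 and 2, 29.3 and 40.8 in homeostatic MuSC 1 and 2, and 327 and 343 in total muscle 1 and 2. Ckm, the muscle creatine kinase, stood at 10.8 CPM in primary myoblasts, 1.26 and 0.38 in injured MuSC 1 and 2, and 2.87 and 6.54 in homeostatic MuSC 1 and 2. The summed primary myoblasts include a cluster of 205 differentiating myoblasts, in which 6 of these markers were raised over the cells of total muscle. Whether the marker RNA came from the cells themselves or from myofibres was not tested. Its part in the Eno3 and Pgam2 results was not tested either.

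The windows before the starts of Eno3 and Pgam2 (250 bases, RefSeq, GRCm38.p6, on the gene's strand) were searched, on both strands, for CAGCTG, an E-box bound by the myogenic factors, and CATTCC, the MCAT element bound by TEAD factors. Capitals mark the matches, CATTCC as its reverse complement GGAATG.
Eno3 (chr11:70656926-70657175, plus strand): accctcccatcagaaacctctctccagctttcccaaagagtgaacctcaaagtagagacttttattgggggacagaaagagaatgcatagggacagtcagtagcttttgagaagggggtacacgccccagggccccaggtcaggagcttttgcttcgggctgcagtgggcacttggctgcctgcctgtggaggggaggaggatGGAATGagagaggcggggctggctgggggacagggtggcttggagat
Pgam2 (chr11:5803797-5804046, minus strand): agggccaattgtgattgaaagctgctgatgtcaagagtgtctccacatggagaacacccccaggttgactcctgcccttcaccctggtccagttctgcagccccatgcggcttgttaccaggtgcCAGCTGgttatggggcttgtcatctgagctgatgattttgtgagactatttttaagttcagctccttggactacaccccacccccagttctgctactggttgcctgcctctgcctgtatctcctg
Eno3 holds 1 CATTCC match and no CAGCTG, and Pgam2 holds 1 CAGCTG match and no CATTCC. Among all 32851 windows, 13% hold CAGCTG and 12.6% hold CATTCC, and both genes were chosen for display after their values were seen.

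Lactate dehydrogenase interconverts pyruvate and lactate. Ldha, the muscle-type subunit with 82 copies, stood at 1200 CPM in primary myoblasts, 588 and 476 in injured MuSC 1 and 2, 401 and 374 in homeostatic MuSC 1 and 2, and 479 and 389 in total muscle 1 and 2. It was highest in culture, by 1.63 ± 0.18 over homeostatic (2.49e-08) and 1.17 ± 0.18 over injured MuSCs (5.96e-06). Its injury value, 0.44 ± 0.15 (0.0138), did not pass without homeostatic MuSC 2 (0.37, adjusted p = 0.0674), without injured MuSC 1 (0.30, adjusted p = 0.159) or without TMM (0.14, adjusted p = 0.389). Ldhb, the heart-type subunit, stood at 110 CPM in primary myoblasts, 21.6 and 21.0 in injured MuSC 1 and 2, 12.1 and 10.6 in homeostatic MuSC 1 and 2, and 9.09 and 6.56 in total muscle 1 and 2. It too was highest in culture, by 3.28 ± 0.22 over homeostatic (6.73e-12) and 2.37 ± 0.19 over injured MuSCs (3.58e-10), with 0.89 ± 0.23 after injury (0.0021).

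In primary myoblasts both lactate transporters were lower than in homeostatic MuSCs, where both dehydrogenases were higher. Slc16a1 encodes MCT1, which carries lactate in either direction. It stood at 20.6 CPM in primary myoblasts, 65.0 and 71.4 in injured MuSC 1 and 2, 66.7 and 95.01 in homeostatic MuSC 1 and 2, and 84.8 and 85.2 in total muscle 1 and 2. The myoblast library lay below all others, at -1.97 ± 0.22 against homeostatic (4.87e-08) and -1.73 ± 0.22 against injured MuSCs (4.59e-07), while injured and homeostatic libraries overlapped (-0.26 ± 0.18, 0.187; -0.53 without homeostatic MuSC 1, adjusted p = 0.00979; -0.56 without TMM, adjusted p = 0.0116). Slc16a3 encodes MCT4, the low-affinity exporter of glycolytic cells. It stood at 7.88 CPM in primary myoblasts, 0.84 and 0.94 in injured MuSC 1 and 2, 94.5 and 43.6 in homeostatic MuSC 1 and 2, and 9.09 and 39.3 in total muscle 1 and 2. Homeostatic MuSC 1 was the highest library, and the homeostatic libraries lay above all others. The log2 fold change was -6.28 ± 0.43 after injury (2.63e-09; -5.64 without homeostatic MuSC 1), -3.14 ± 0.31 in primary myoblasts against homeostatic (6.95e-09; -2.46 without homeostatic MuSC 1) and 3.15 ± 0.48 against injured MuSCs (6.44e-06). Haemoglobin and other erythroid RNA also varied across these libraries, with a summed level of 0.0069 CPM in primary myoblasts, 4.05 and 2.63 in injured MuSC 1 and 2, and 3770 and 908 in homeostatic MuSC 1 and 2. Its part in the Slc16a3 result was not tested.

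Genes of the pyruvate dehydrogenase gate moved by isoform. Pdk4, the kinase induced by fasting and fatty acids, stood at 3.19 CPM in primary myoblasts, 74.2 and 99.9 in injured MuSC 1 and 2, 19.3 and 15.9 in homeostatic MuSC 1 and 2, and 21.2 and 13.1 in total muscle 1 and 2. It was highest after injury and lowest in culture. The log2 fold change was 2.28 ± 0.21 after injury (7.14e-08), -2.46 ± 0.27 in primary myoblasts against homeostatic (2.11e-08) and -4.77 ± 0.26 against injured MuSCs (3.52e-13). Pdk3 stood at 20.1 CPM in primary myoblasts, 15.4 and 15.4 in injured MuSC 1 and 2, 1.44 and 1.87 in homeostatic MuSC 1 and 2, and 6.06 and 4.37 in total muscle 1 and 2. It was higher in injured MuSCs and primary myoblasts, at 3.18 ± 0.35 after injury (7.24e-07) and 3.61 ± 0.35 in primary myoblasts against homeostatic MuSCs (4.78e-09), while primary myoblasts against injured MuSCs gave 0.38 ± 0.22 (0.14; 1.08 without TMM, adjusted p = 0.0002). Pdk1, a target of hypoxia-inducible factor 1, stood at 11.4 CPM in primary myoblasts, 0.42 and 0.75 in injured MuSC 1 and 2, 2.87 and 1.25 in homeostatic MuSC 1 and 2, and 0 and 6.56 in total muscle 1 and 2. It was raised in culture, by 2.44 ± 0.40 over homeostatic (1.03e-05; 3.19 without homeostatic MuSC 1) and 4.32 ± 0.44 over injured MuSCs (1.48e-08).

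The subunits of the E1 enzyme that these kinases inhibit moved less. Pdha1, the catalytic alpha subunit, stood at 95.9 CPM in primary myoblasts, 75.8 and 78.9 in injured MuSC 1 and 2, 58.3 and 34.0 in homeostatic MuSC 1 and 2, and 36.4 and 61.2 in total muscle 1 and 2. It was higher in primary myoblasts than in homeostatic MuSCs by 1.05 ± 0.22 (0.000202). After injury the value was 0.72 ± 0.205 (0.00489), which did not pass without homeostatic MuSC 2 (0.36, adjusted p = 0.0869) or without TMM (0.42, adjusted p = 0.0749). Primary myoblasts against injured MuSCs gave 0.31 ± 0.21 (0.217), which passed without TMM (1.0, adjusted p = 0.000344) and without the filter on low counts (0.47, adjusted p = 0.0443). Pdhb, the beta subunit with 1 copy, stood at 60.9 CPM in primary myoblasts, 128 and 117 in injured MuSC 1 and 2, 48.9 and 51.1 in homeostatic MuSC 1 and 2, and 51.5 and 63.4 in total muscle 1 and 2. The injured libraries were highest, by 1.28 ± 0.16 over homeostatic MuSCs (1.95e-06), and the value in primary myoblasts was 0.28 ± 0.19 against homeostatic (0.18; 0.66 without TMM, adjusted p = 0.00346) and -1.02 ± 0.19 against injured MuSCs (7.3e-05; -0.32 without TMM, adjusted p = 0.113).

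Isoform shares summarise these changes within a library, where scaling has no part. Each share is of the UMIs of the named family and describes 3' tags, whose capture may differ between transcripts. Exact tests of 2 libraries against 2 cannot go below p = 0.333, so none is given. Pfkp made up 13.7% of the phosphofructokinase UMIs in primary myoblasts, 52.6% ± 0.956 in injured MuSCs, 92.6% ± 0.914 in homeostatic MuSCs and 82.2% ± 0.973 in the myogenic cells of total muscle (SD, n = 2 for all but the single myoblast library). Pfkl made up 77.0% in primary myoblasts, 41.5% ± 3.80 in injured MuSCs, 5.85% ± 0.720 in homeostatic MuSCs and 12.7% ± 2.24 in total muscle. The order of primary myoblasts, injured and homeostatic MuSCs was thus reversed between the isoforms, with gaps larger than the spread between libraries. The total muscle share of Pfkl rests on 3 and 5 UMIs, and its counting intervals overlapped those of homeostatic MuSCs.

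Hk2 made up 48.2% of hexokinase UMIs in primary myoblasts, against 93.7% ± 1.90 in injured MuSCs, 95.2% ± 0.762 in homeostatic MuSCs and 97.9% ± 0.814 in total muscle. Injured and homeostatic MuSCs lay within 2 SD of each other, and Hk1 and Hk2 were near balance in culture. Slc2a3 made up 0.15% of transporter UMIs in primary myoblasts, 82.3% ± 4.2 in injured MuSCs, 22.3% ± 2.81 in homeostatic MuSCs and 14.9% ± 5.40 in total muscle, so GLUT3 transcripts were the majority in the injured group and the minority in the other 3. Eno3 made up 34.4% of enolase UMIs in primary myoblasts, 36.5% ± 2.02 in injured MuSCs, 4.06% ± 0.558 in homeostatic MuSCs and 10.6% ± 0.786 in total muscle, in a family whose Eno1 and Eno1b have copies. Ldhb made up 8.42% of lactate dehydrogenase UMIs in primary myoblasts, 3.89% ± 0.487 in injured MuSCs, 2.84% ± 0.122 in homeostatic MuSCs and 1.76% ± 0.146 in total muscle. Slc16a3 made up 27.7% of transporter UMIs of its family in primary myoblasts, 1.28% ± 0.0195 in injured MuSCs and 45.1% ± 19.2 in homeostatic MuSCs, where the libraries themselves differed widely. Pdk4 held 9.21% of the kinase UMIs in primary myoblasts, 84.3% ± 2.55 in injured MuSCs and 82.7% ± 1.34 in homeostatic MuSCs.

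**Figure D4:**
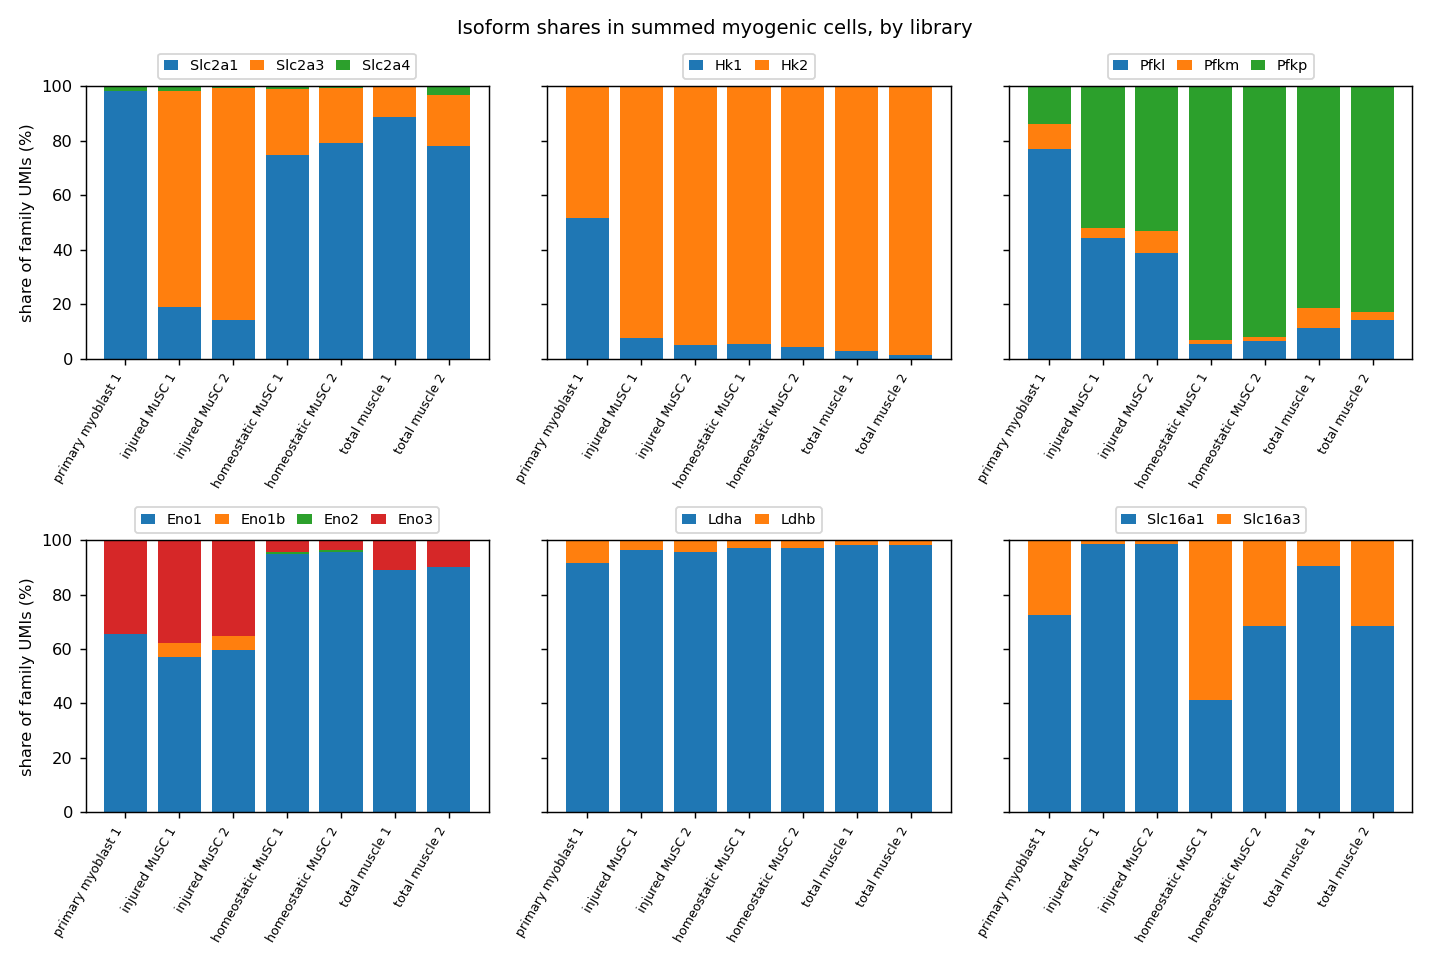
Share of each isoform in the UMIs of its family (percent), stacked per library of summed myogenic cells, from the primary myoblast library on the left to the total muscle libraries on the right. Pfkp fills 92.6% of its bar on average in homeostatic MuSCs and 13.7% in primary myoblasts, and Slc2a3 fills 82.3% on average in injured MuSCs.

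Homeostatic MuSCs and the myogenic cells of total muscle, which were not sorted by a stem cell gate, differed little. Of 23 genes tested, 1 was higher and none lower in homeostatic MuSCs, where 4.32% of all 8002 tested genes were higher and 4.11% lower. The gene was Pfkp (0.85 ± 0.23, adjusted p = 0.0239), which did not pass without homeostatic MuSC 1 (0.0623), total muscle 1 (0.0511) or total muscle 2 (0.179). DESeq2 called none. At an unadjusted p under 0.05, 3 genes were higher and 2 (Gpi1 and Eno3) lower. Hk1, at 1.56 ± 0.58 (0.115), Eno3, at -1.62 ± 0.65 (0.149), and Slc16a3, at 1.32 ± 0.48 (0.112), had sizeable differences that did not pass. For Slc16a3 the value passed without homeostatic MuSC 2 (1.80, adjusted p = 1.74e-06), without total muscle 2 (2.85, adjusted p = 0.000166), with all libraries in 1 fit (1.40, adjusted p = 0.0081), without the filter (1.38, adjusted p = 0.00108) and with the replicate block (1.19, adjusted p = 0.00584). Gpi1, at -0.68 ± 0.24 (0.0933), passed without homeostatic MuSC 2 (-0.79, adjusted p = 0.0313). The total muscle sums rest on 319405 and 449500 UMIs, in which 3 UMIs of a gene amount to roughly 9.09 CPM in the shallower library, so small differences were not detectable.

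Within injured MuSCs and primary myoblasts, cells with a Myog UMI (myogenin, which marks commitment to differentiate) were compared with cells without, library by library. The groups held 197 against 955 cells in injured MuSC 1, 350 against 1483 in injured MuSC 2 and 2988 against 1252 in primary myoblasts. Of the 29 genes tested, 1 was higher (Pgam2) and 3 were lower, where 3.7% of all 11412 tested genes were higher and 1.16% lower. The unscaled level of Pgam2 in Myog-positive and Myog-negative cells was 10.96 against 0.42 CPM (17 and 3 UMIs) in injured MuSC 1, 13.3 against 1.15 in injured MuSC 2 and 59.3 against 6.99 in primary myoblasts. All 3 libraries had the same direction, and the log2 fold change was 3.18 ± 0.18 (6.87e-13; 3.99 without the myoblast library, adjusted p = 1.01e-07). Eno3 was at 540 against 501 CPM in injured MuSC 1, 378 against 329 in injured MuSC 2 and 716 against 605 in primary myoblasts, a difference of 0.17 ± 0.05 that did not pass (0.0923). It passed as higher without injured MuSC 2 (0.17, adjusted p = 0.00117), without TMM (0.19, adjusted p = 0.000279), with at least 2 Myog UMIs against none (0.27, adjusted p = 0.00171) and with cells thinned to 1000 UMIs (0.48, adjusted p = 0.00505). Whether Eno3 is called thus depends on these settings, and its difference was smaller than that of Pgam2 in each library.

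The 3 lower genes differed by small amounts. Hk2 was at 64.5 against 86.1 CPM in injured MuSC 1, 66.7 against 112 in injured MuSC 2 and 36.5 against 39.997 in primary myoblasts. Its log2 fold change was -0.37 ± 0.10 (0.0222; 0.0558 without injured MuSC 1, 0.257 without injured MuSC 2, 0.173 with thinned cells). The others were Eno1 (-0.13 ± 0.03, 0.00304) and Pkm (-0.12 ± 0.03, 0.00975). Neither passed without injured MuSC 1 (0.478 and 0.0912) or without the myoblast library (0.184 and 0.513), and Pkm did not pass without injured MuSC 2 (0.0569). Eno1 did not pass with thinned cells (0.521) or with at least 2 Myog UMIs against none (0.0558), and DESeq2 called none of the 3. Without the myoblast library Gapdh passed at 0.11 (0.0236) and Pdk4 at -0.48 (0.023). The remaining 25 genes did not pass with all libraries. Myog status was read at unequal depth, with median UMIs in Myog-positive and Myog-negative cells of 7423 against 7452, 3217 against 3298 and 25308 against 23052.

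Cell types of total muscle were gated by marker genes that include none of the 34, which gave 9 types with at least 20 cells in each library. Between these types 27 of 27 tested genes differed, as did 93.8% of all 8362 genes, so difference alone sets the list apart from nothing. The pattern was led by myofibres (34 and 57 cells in total muscle 1 and 2). The 34 genes together made up 55750 and 52720 CPM there, against 2514 to 4396 CPM in the other tested types. Against the mean of the other types, 16 genes were higher and 6 lower in myofibres, where 17.1% of all genes were higher and 25.4% lower. For each other type this mean includes myofibres, so a gene very high in myofibres has its value lowered in the others. Aldoa, at 5.78 in myofibres on the log2 scale, was at -0.79 in fibro-adipogenic cells and -0.75 in B cells. The part of myofibres in the counts of lower genes given below by type was not tested.

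Of the 34 genes, Aldoa and Gapdh were highest in myofibres, followed by the fibre isoforms Eno3 and Pgam2. Aldoa stood at 23237 and 22278 CPM in myofibres of total muscle 1 and 2, against 337 to 887 CPM in the other tested types. Eno3 stood at 6685 and 6412 CPM, Pgam2 at 4568 and 4796 CPM and Pfkm at 645 and 648 CPM. Gapdh stood at 9888 and 8206 CPM, Ldha at 4235 and 3958 CPM and Tpi1 at 2633 and 2407 CPM. Pdk4 reached 494 and 339 CPM, against at most 22.0 CPM elsewhere. The insulin-responsive Slc2a4 had 5 and 6 UMIs in myofibres (53.7 and 35.7 CPM) and 5 and 3 in mural cells (56.1 and 29.6 CPM), and at most 5.03 CPM in the other types. In contrast Slc2a1, Slc2a3, Hk1 and Pfkp had 0 UMIs in myofibres, which allows up to 32.2 and 17.8 CPM at 3 counts of the UMIs in each library. Eno1 was lower there as well, at 32.2 and 59.4 CPM, against 77.1 to 476 CPM in the other types. Myofibre RNA was also read in the other gated types, where Ckm had 801 UMIs in all. Pgam2 had 0.17 UMIs per Ckm UMI in myofibres and 0.16 over all other gated types, and Eno3 had 0.23 and 0.24. By type outside myofibres the ratio lay between 0.073 and 0.5 for Pgam2 and between 0.071 and 0.36 for Eno3, from 1 to 66 UMIs each, and the part of myofibre RNA in these levels was not tested. Aldoa had 0.81 UMIs per Ckm UMI in myofibres and 7.92 elsewhere, and Gapdh 0.31 and 6.36, a larger ratio than in myofibres.

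**Figure D5:**
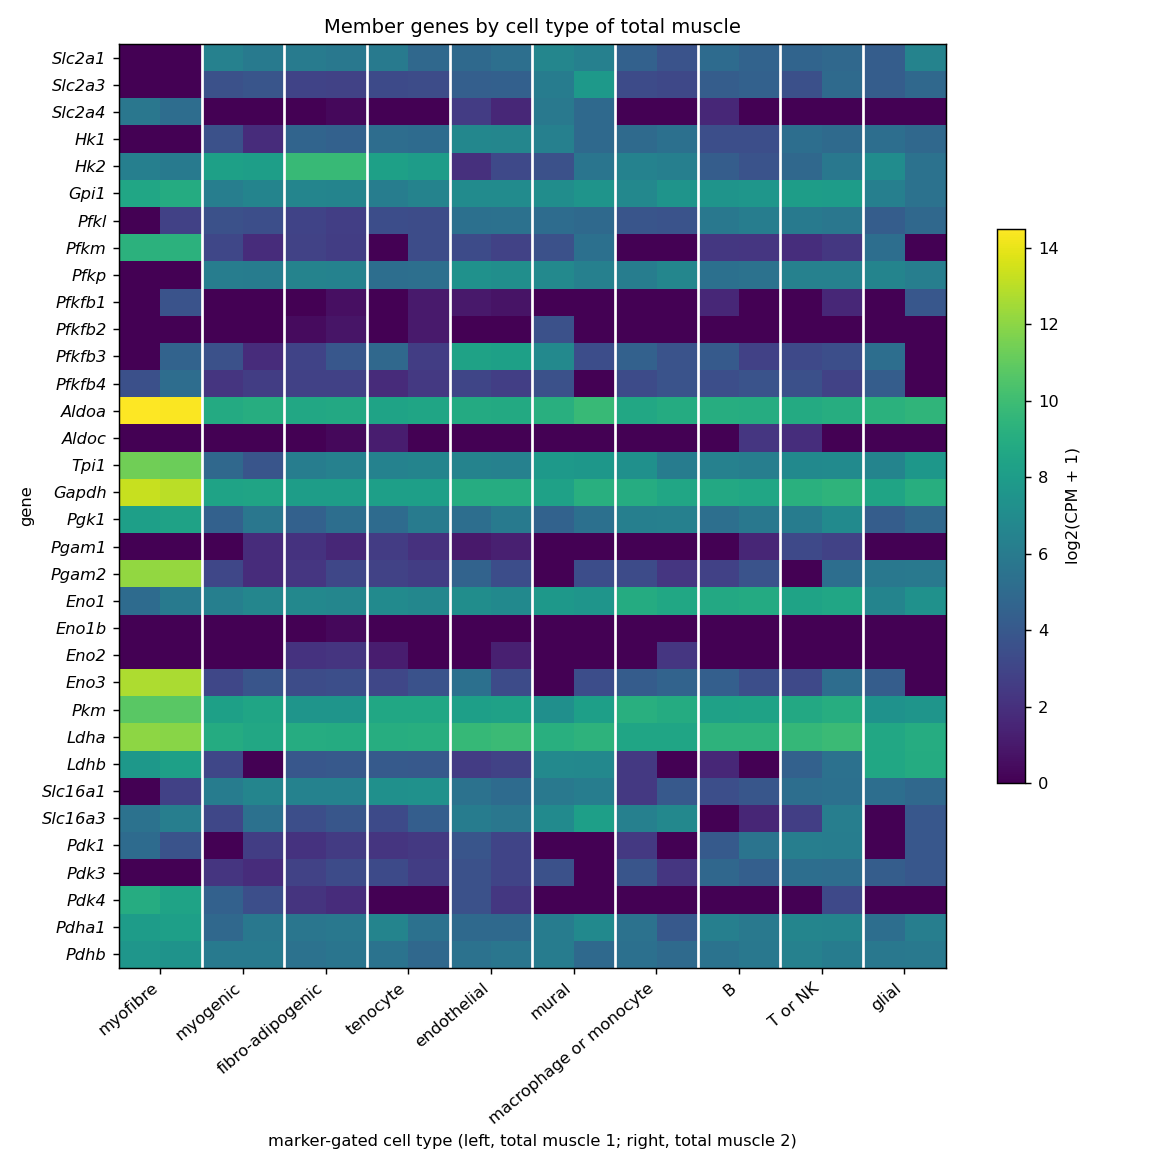
Log2(CPM + 1) of the 34 genes (rows) in marker-gated cell types of total muscle (paired columns, total muscle 1 left and total muscle 2 right). Myofibre columns are brightest for Aldoa (23237 and 22278 CPM) and dark for Slc2a1, Slc2a3, Hk1 and Pfkp (0 UMIs), Hk2 is brightest in fibro-adipogenic cells and Pfkfb3 in endothelial cells; glial cells were too few to test.

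Hk2 and Slc16a1 (MCT1) were higher in fibro-adipogenic cells, tenocytes and myogenic cells, each against the mean of the other types. Slc16a1 stood at 84.3 and 86.4 CPM in fibro-adipogenic cells and at 66.1 and 96.3 CPM in myogenic cells. In fibro-adipogenic cells, the connective tissue progenitors, Hk2 stood at 883 and 867 CPM, against 3.02 and 8.29 CPM in endothelial cells (4.17 ± 0.10 against the mean of the other types, adjusted p = 1.21e-64). Here 4 genes were higher and 13 lower against a mean that includes myofibres, where 35% of all genes were higher and 7.73% lower. Tenocytes, the tendon cells, had Hk2 at 303 and 263 CPM and the highest Slc16a1, at 156 and 159 CPM (2.65 ± 0.19, 1.47e-24), with 4 genes higher and 8 lower (29.5% and 6.45% of all genes). Myogenic cells had Hk2 at 305 and 279 CPM, with 4 genes higher (Slc2a1, Hk2, Slc16a1 and Pdk4) and 10 lower (23.4% and 11.2% of all genes).

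Vascular cells differed by type. Endothelial cells had the highest Pfkfb3, a kinase known for driving glycolysis in growing vessels, at 323 and 305.5 CPM (4.39 ± 0.17, 1.08e-45), together with Hk1 at 103 and 101 CPM and Pfkp at 161 and 142 CPM. In them 6 genes were higher and 8 lower (34.5% and 12.6% of all genes). Mural cells had the highest Slc2a3, at 67.4 and 227 CPM (4.12 ± 0.52, 5.17e-11), and Slc16a3, at 123.5 and 286 CPM (2.93 ± 0.39, 6.26e-10), from 89087 and 101419 UMIs in all. Of the genes tested in them 5 were higher and 4 lower (15.8% and 4.01% of all genes), and the replicates were uneven for both transporters.

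Immune cells shared a high Eno1. It stood at 476 and 398 CPM in macrophages or monocytes, 428 and 460 CPM in B cells and 345 and 377 CPM in T or NK cells, and passed as higher in each. T or NK cells also had the highest Pdk1, at 72.2 and 70.3 CPM (3.96 ± 0.43, 6.97e-14), with 8 genes higher and 2 lower (22.6% and 11.1% of all genes). B cells had 4 higher and 8 lower (26.8% and 13.1%), with Ldhb, at 1 and 0 UMIs, among the lower ones. Macrophages or monocytes had 4 higher and 5 lower (19% and 7.09%), with Slc16a3 raised at 79.4 and 107 CPM (2.02 ± 0.36, 1.33e-06).

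Pathways that branch from glycolysis were read from lists that are not part of the 34. The pentose phosphate list of 7 genes, which makes NADPH and ribose, had 6 higher and 1 lower in primary myoblasts against homeostatic MuSCs, where 39.5% of all genes were higher and 32.2% lower. After injury 4 were higher and 1 lower, where 38.3% of all genes were higher and 37.3% lower. Pgls, the lactonase, stood at 297 CPM in primary myoblasts, 134 and 137 in injured MuSC 1 and 2, and 29.3 and 28.3 in homeostatic MuSC 1 and 2 (3.36 ± 0.19 in primary myoblasts and 2.21 ± 0.16 after injury, both against homeostatic MuSCs). Taldo1 (1.53 ± 0.19) and Pgd (1.97 ± 0.22) were also higher in primary myoblasts. Rpia was lower in both groups (-2.06 ± 0.24 in primary myoblasts and -1.08 ± 0.20 after injury) and has 15 copies.

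The glycogen list of 13 genes had 5 higher and 4 lower of 12 tested in both comparisons against homeostatic MuSCs, near the shares over all genes just given. Ugp2, which makes the glycogen precursor UDP-glucose, and Gbe1, the branching enzyme, were lower in primary myoblasts (-2.21 ± 0.21 and -2.79 ± 0.23) and after injury (-2.64 ± 0.17 and -2.65 ± 0.19), as was Pgm1 (-2.64 ± 0.23 and -4.04 ± 0.22). The list of 10 pyruvate entry genes had 3 higher and 4 lower in each comparison, of 10 tested in primary myoblasts and 9 after injury. Mpc1, a subunit of the mitochondrial pyruvate carrier with 2 copies, stood at 1.70 CPM in primary myoblasts, 150 and 148 in injured MuSC 1 and 2, and 11.8 and 11.5 in homeostatic MuSC 1 and 2, while Pdp1, the phosphatase that reactivates pyruvate dehydrogenase, was lower in both (-2.47 ± 0.23 in primary myoblasts and -2.13 ± 0.20 after injury).

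Other glycolytic, transport and bypass genes (30 listed) were mostly too low to test, with 6 higher and 3 lower of 13 in primary myoblasts and 5 higher and 5 lower of 11 after injury, against homeostatic MuSCs. Over all genes, 39.5% were higher and 32.2% lower in primary myoblasts, and 38.3% and 37.3% after injury. Bsg, the chaperone of the lactate transporters, stood at 534 CPM in primary myoblasts, 409 and 315 in injured MuSC 1 and 2, and 246 and 237 in homeostatic MuSC 1 and 2 (1.14 ± 0.19 and 0.56 ± 0.15). Among 18 regulators, 6 were higher and 9 lower in primary myoblasts, and of the 17 tested after injury 3 were higher and 7 lower. Myc, an activator of glycolytic genes, stood at 26.2 CPM in primary myoblasts, 126 and 111 in injured MuSC 1 and 2, and 570 and 532 in homeostatic MuSC 1 and 2 (-4.39 ± 0.23 in primary myoblasts and -2.24 ± 0.15 after injury). Arnt, the partner of the hypoxia-inducible factors, was lower in both (-3.03 ± 0.24 and -2.29 ± 0.20), and Hif1a itself was lower in primary myoblasts (-0.92 ± 0.20). In primary myoblasts against injured MuSCs, 34.4% of all genes were higher and 25.5% lower. There the pentose phosphate list had 4 higher and 1 lower of 7 tested, and glycogen 5 and 2 of 12. Pyruvate entry had 2 and 1 of 10, the other glycolytic genes 8 and 1 of 13 and the regulators 4 and 5 of 18. Between homeostatic MuSCs and total muscle the 5 lists together had 2 genes higher, Gbe1 (1.14 ± 0.29) and Ugp2 (0.77 ± 0.22), and 2 lower, Emb (-2.72 ± 0.51), another transporter chaperone, and Myc (-0.69 ± 0.13). Of all 8002 genes tested there, 4.32% were higher and 4.11% lower.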

How the data were processed

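The authors deposited, per library, UMI counts of genes in cells as whole numbers (10x Genomics 3' kit, per the labels), which the submitters' processing notes place on mm10 with bcl2fastq 2.17.1, Cell Ranger 2.2.0 and Seurat 2.3.4. Neither an annotation version nor a strand setting is given in the sources used here.

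Cells with at least 200 genes and at most 10% mitochondrial UMIs were kept, and the highest doublet scores were left out (0.8% per 1000 cells). All libraries were clustered together (scanpy 1.11.5, leidenalg 0.10.2; 2000 variable genes, 30 components, 20 neighbours, resolution 1), and clusters named by myogenic markers, with the adjoining cluster of differentiating myoblasts, were summed per library. Sums were tested with edgeR 4.0.16 (quasi-likelihood, TMM, filterByExpr) under R 4.3.3, with Benjamini-Hochberg adjustment over all genes tested, and recomputed with DESeq2 1.42.0 and the other settings given at the end. Each SE was taken from the test's F value. The script was tested on simulated counts. The primary myoblast comparisons used the 5 sorted or cultured libraries in 1 fit. Marker-gated cell types of total muscle and cells split by Myog kept the library as a block. A gate needed at least 3 detected genes of a list and a larger share of it than of any other list, and myofibres needed at least 10% of UMIs from myofibre markers.

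A near-identical copy is a match of at least 90 bases at 95% identity between the last 300 bases of transcripts of genes at different loci (blastn 2.17.0; 5123 of 27604 genes searched had one). The counting may be unable to place reads of such genes with a single gene, so their values are uncertain. Promoters came from RefSeq (GRCm38.p6), where 31 of the 34 genes matched. Intervals and floors cover counting error only.

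Values in every library are given for genes with a mean of at least 30 CPM in any group and for their isoforms, and the others by range and count. Of each pathway list the counts are given with up to 4 passing genes of the highest mean CPM, and any further gene was chosen after its values were seen. A gene of the glycogen list is not reported here. The genes, pathway lists and marker lists were chosen with earlier results of these data known.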

Additional observations from a re-analysis of the deposited data

Results flagged for a closer look

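Ldhb stood at 392.47 and 481.27 CPM in cells of total muscle 1 and 2 gated by glial markers (21 and 33 UMIs from 19 and 22 cells), a type left out of the comparison of cell types for its cell number. These levels lay above those of every tested type, of which myofibres were next at 215 and 303 CPM, and they were not tested.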

How the results depend on the processing

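Among genes without a near-identical copy, 14 passed in injured against homeostatic MuSCs, 12 in primary myoblasts against injured MuSCs and 17 in primary myoblasts against homeostatic MuSCs, against 25, 23 and 27 over the whole list, since fewer genes were counted. Under the other settings these 3 counts were 22 to 27, 23 to 25 and 25 to 27. Homeostatic MuSCs against total muscle, where 1 gene passed, gave 0 in DESeq2, 2 with all libraries in 1 fit, 2 without the filter on low counts and 20 (6 higher and 14 lower) when all cells were summed, which compares stem cells with whole tissue. Leaving out 1 library gave 0 to 3, and 0 without homeostatic MuSC 1 or total muscle 1. The Myog comparison, where 4 genes passed, gave 1 in DESeq2, 2 without the filter and 1 to 4 when 1 library was left out (1 without injured MuSC 1). Where 1 library remained in a group, it was assumed to vary like the others. Summing all cells turned the direction of Hk1 to -0.58 (1.56 in myogenic cells) and of Slc16a1 to 0.45 (-0.16) in homeostatic MuSCs against total muscle, and leaving out TMM turned Pfkp to 0.64 (-0.06) in primary myoblasts against injured MuSCs. None of the 3 passed with the settings reported, each passed after the turn, and the cause of the changes was not tested. All 27 tested genes differed between cell types under each of 4 alternatives, and with 1 library left out no residual degrees of freedom remained. The order of groups in isoform shares was kept for 5 of 5 genes. The pairing of replicate numbers is not given by the labels, and deviations of equal numbers did not go together (correlations -0.021 and -0.012). With the replicate block, 24 genes passed after injury and 2 in homeostatic MuSCs against total muscle. Without TMM the median log2 fold change of all genes was -0.27 after injury, against 0.03 with it, and in primary myoblasts against homeostatic MuSCs 0.57 against 0.19. Leaving out the cluster of differentiating myoblasts and keeping the cells whose barcodes are not GC-rich were settings chosen after seeing the data, and both lie in the ranges above. Depth limits the total muscle comparison: its sums hold few UMIs per gene, and genes under a few CPM could not be tested.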
